A study of Mus musculus with 4 samples.

Results

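The genes described here are 10 regulators of the G1 phase of the cell cycle, taken from bulk RNA-seq of mouse hair follicle stem cells (HF-SCs). They are the D-type cyclins Ccnd1, Ccnd2 and Ccnd3, their kinases Cdk4 and Cdk6, the kinase inhibitors Cdkn1a, Cdkn1b, Cdkn1c and Cdkn2b, and the retinoblastoma gene Rb1. They were picked by symbol from a list of genes that control the exit from quiescence, with the condition that the authors' mean normalized count was above 0. All 10 met it, among 17044 genes with a mean above 0 in a table of 24421 genes.

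The study asked what induction of miR-205, a microRNA of the skin epithelium, does to the HF-SC transcriptome. Live HF-SCs were sorted from back skin by high H2BGFP signal, high CD34 and high α6 integrin on the surface and no Sca1, and 4 libraries were sequenced. The Ctrl group had 2 libraries and the miR-205 inducible group had 2, and mice of both groups carried the Krt14-H2b-GFP reporter. By the study's methods, the mice of both groups were matched for sex and the controls were littermates. In the inducible mice a pTRE2-miR-205 transgene is switched on by Krt14-rtTA when doxycycline is eaten, so induction reaches all Krt14-expressing epithelium and not HF-SCs alone. By the labels the mice were 44 d old, and doxycycline had been in the chow since day 42, thus for 2 d. The labels describe the Ctrl mice as untreated, whereas the study's methods have both groups fed doxycycline. The labels give the strain as C57BL/6, and the methods say that the transgene was injected into FVB mice. The number of mice behind a library is not given in the sources used here.

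No comparison of induced with control cells was made. The deposited table gives 1 mean normalized count per gene over all 4 libraries, and its remaining columns are the authors' own comparison, which was not used. The means carry enough digits to recover the whole reads of each library for most genes, including 9 of the 10 regulators. The recovered libraries have no name and no group. They are given the letters A, B, C and D here in order of decreasing size factor, the divisor that corrects for depth, and their values are described one by one with no average over a group and no test.

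D-type cyclins rise when growth signals reach a resting cell, and they bind and activate CDK4 and CDK6. The active kinases phosphorylate RB, the protein of Rb1, which then releases the E2F transcription factors that switch on genes of DNA synthesis. Inhibitors of the INK4 family, such as the p15 protein of Cdkn2b, bind CDK4 and CDK6 alone, whereas the CIP/KIP family, p21 (Cdkn1a), p27 (Cdkn1b) and p57 (Cdkn1c), bind cyclin-kinase complexes. Bulge HF-SCs rest through telogen, the resting phase of the hair cycle, and divide when a new hair begins to grow.

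The induced microRNA is shown first because its seed, bases 2 to 8 in capitals, is what pairs with a target. The mature sequence and the gene coordinates below are from RefSeq, GRCm38.p6, and mm10 (GRCm38) is the build the labels name.
mmu-miR-205-5p: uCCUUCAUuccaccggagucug
Of the 10 regulators, 2 hold the complementary ATGAAGG in the longest annotated 3′UTR of the GENCODE vM1 protein-coding transcripts, searched on the transcript strand. They are shown because they are the only members with a full seed match there, which is in capitals.
Ccnd2: tgaaacattgaATGAAGGaagctgacaca
Cdkn1b: tttaaaaataaATGAAGGaatatagagat
The Ccnd2 match begins at base 3067 of a 3′UTR of 4556 bases, and the Cdkn1b match at base 1233 of 3439. Among 15270 genes with a mean above 0 and an annotated 3′UTR, 11.7% hold at least 1 such match, and among those with a 3′UTR of 700 to 5000 bases the share is 15.6%. The median 3′UTR of that second set is 1701 bases, shorter than those of Ccnd2 and Cdkn1b, and a longer 3′UTR has more room for a match. The 3′UTR of Ccnd1 holds 3 copies of the shorter TGAAGG, which also lies inside ATGAAGG, but none of the full match. The shorter letters are found in 36.6% of the same 15270 genes and in 48.7% of those with a 3′UTR of 700 to 5000 bases. A match is a description of these letters and says nothing of binding. The study captured miR-205 joined to its mRNA sites by CLEAR-CLIP. Its printed list covers bound mRNAs in categories of the actin cytoskeleton and cell adhesion, and Ccnd2, Cdkn1b and Cdk6 are in it. A regulator absent from that list may still have been bound. Cdk6 held neither the full nor the shorter match in the 3′UTR searched here.

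In the sorted cells, the 12 markers of basal keratinocytes and HF-SCs had mean normalized counts, not scaled by length, from 590 for Tcf7l1 to 146090 for Krt5. The gate markers Cd34 and Itga6 (α6) stood at 14575 and 12910. Ly6a, which encodes Sca1 and was sorted against, stood at 136 and was present in every library at 60.0 to 179. Markers of other cells were present, led by Krt10 of suprabasal cells at 7246, Col1a1 of fibroblasts at 5186, Scd1 of sebaceous cells at 3085, Cd74 of myeloid cells at 2744, Dct of melanocytes at 498 and Pecam1 of endothelium at 36.4. The lowest suprabasal, fibroblast and sebaceous markers were Ivl at 116, Pdgfra at 39.5 and Mc5r at 2.71. The lowest myeloid, melanocyte and endothelial markers were Adgre1 at 62.3, Mlana at 9.77 and Kdr at 17.3. The resolved genes summed to between 3523594 and 6249242 reads per library, which leaves out 991 genes, the 914 with the highest means among them, and the deepest library had 1.73 times the size factor of the shallowest. Because these are bulk samples, fewer cells of a type and less RNA per cell cannot be told apart.

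Before any scaling by length, the regulators were mostly abundant. Their means ran from 19.8 for Cdkn2b to 8004 for Cdkn1a, and 7 of 10 lay above 117, the median of the 17044 genes. The median percentile of the 10 was 84.8, where a percentile is the share of these genes with a lower mean. Cdk6 lay just under the median, at percentile 49.9, with Cdkn1c and Cdkn2b further down at 45.4 and 30.8.

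**Figure D1:**
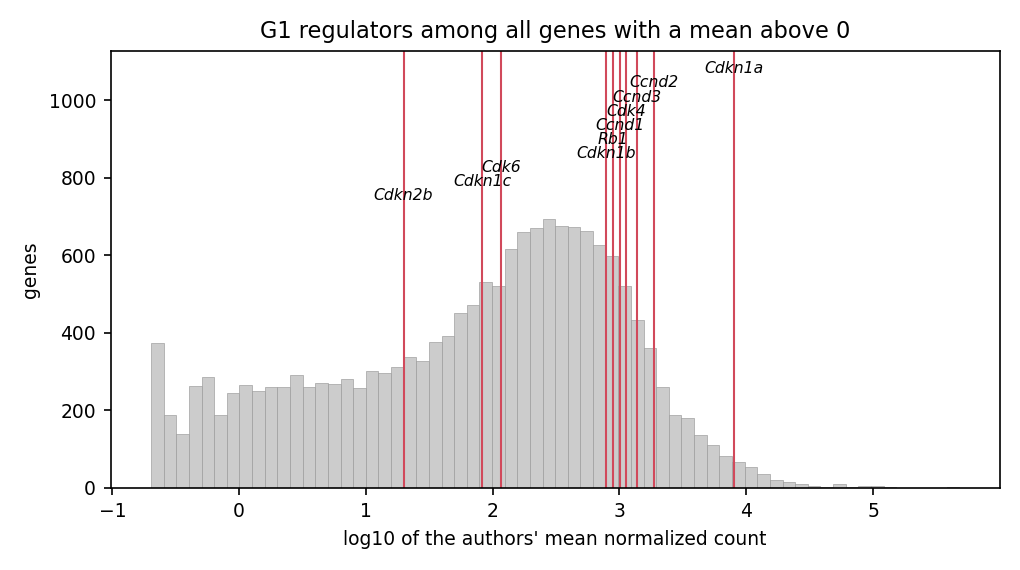
Histogram of the log10 mean normalized count of the 17044 genes with a mean above 0 (x axis, number of genes on the y axis), with a red line at each of the 10 G1 regulators. Cdkn1a stands alone at the high end, 6 regulators lie between 782 and 1856, and Cdk6, Cdkn1c and Cdkn2b lie at or under the median of 117.

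Long transcripts collect more reads, so the regulators were ordered against one another per kb of the longest annotated protein-coding transcript. On that scale the order was Cdkn1a at 4191 normalized counts per kb, Ccnd3 at 646, Cdk4 at 549, Ccnd2 at 326, Ccnd1 at 268, Rb1 at 192, Cdkn1b at 172, Cdkn1c at 43.0, Cdk6 at 31.1 and Cdkn2b at 14.2. Several neighbours could not be separated by the spread over libraries. The ranges overlapped for Ccnd3 and Cdk4, for Ccnd2 and Ccnd1, for Ccnd1 and Rb1, for Rb1 and Cdkn1b, and for Cdkn1c and Cdk6. Of these pairs, Ccnd2 was above Ccnd1 within each of the 4 libraries, and each of the other pairs kept its order in 3 of 4. The ranges did not overlap between Cdk4 and Ccnd2, between Cdkn1b and Cdkn1c, or between Cdk6 and Cdkn2b. For Ccnd2, 2 sets of reads fit the mean, and the set used keeps every library within 0.5 to 2 times it. The set left out reaches a normalized count of 3113 in library C, against 2027 at most in the set used. With it, the ranges of Cdk4 and Ccnd2 would overlap. Other annotated lengths changed part of this order. With the union of exons, Cdk4 fell to 347 per kb, with a range of 277 to 440 that overlapped the 251 to 356 of Ccnd2, and Rb1, at 148, came below Cdkn1b. With the shortest transcript, Rb1 at 2756 and Cdk4 at 1579 both came above Ccnd3 at 691, Cdkn1b at 327 came level with Ccnd2 at 326, and Cdk6 at 47.0 came above Cdkn1c at 43.8.

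**Figure D2:**
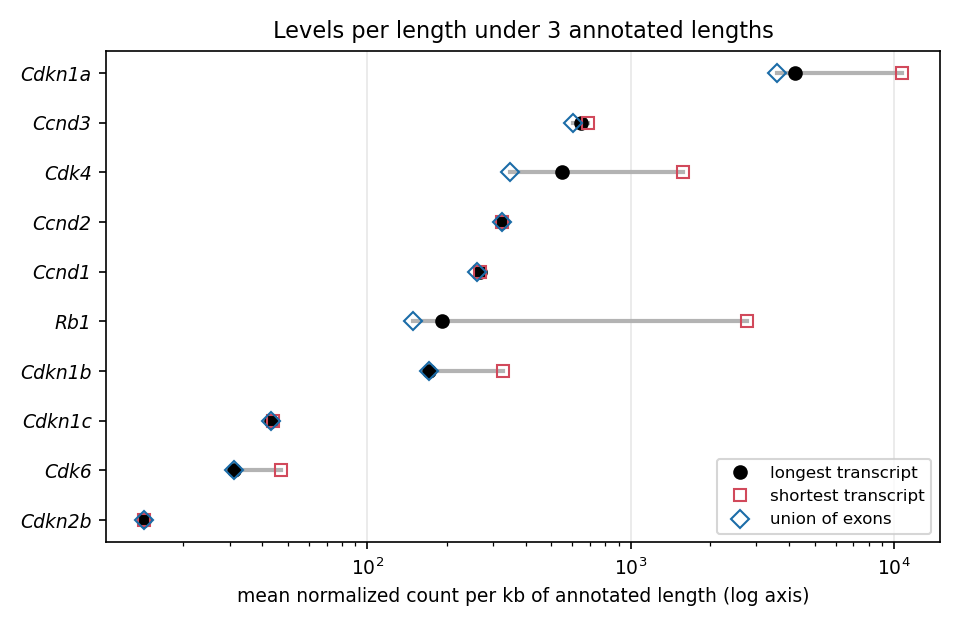
Mean normalized count per kb (x axis, log scale) of each regulator under 3 annotated lengths: the longest protein-coding transcript, the shortest one and the union of exons. Cdkn1a is highest and Cdkn2b lowest under each of the 3, while Rb1 moves from 192 to 2756 with its shortest transcript of 324 bases.

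The D-type cyclins were all well expressed, and Ccnd3 had the highest level per length. Ccnd3 (gene ID 12445, chromosome 17, 47505051 to 47599689), a D cyclin known for its role in lymphocytes, had normalized counts of 1105 in library A, 1253 in B, 1536 in C and 1562 in D. Ccnd2 (gene ID 12444, chromosome 6, 127125162 to 127152188), which carries a miR-205 seed match in its long 3′UTR, had 1432, 2010, 1955 and 2027 in the same order. Ccnd1 (gene ID 12443, chromosome 7, 144929931 to 144939831), the cyclin that answers to many mitogens, had 698, 1191, 1026 and 1090. Library A was the lowest for each of the 3 cyclins, and for Ccnd1 and Ccnd2 the other 3 lay close together above it.

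The counting interval of Ccnd1 in library A, 652 to 746 (exact Poisson, 95%), lay below those of the other libraries, the lowest of which began at 963. Such intervals cover counting error only and not the variation between mice. The highest library had 1.71 times the Ccnd1 count of the lowest, and of 1926 genes with a mean within a factor of 1.5 of that of Ccnd1, 5.24% had a ratio as large, with a median of 1.22. Ccnd2 and Ccnd3 differed less between libraries, with ratios of 1.42 and 1.41, which 19.5% and 18.5% of genes of like mean reached. Above a mean of 500, genes with more than 1 set of reads were settled by a limit of 0.5 to 2 times the mean. Ccnd2 and Ccnd3 were among them, and the limit can narrow such ratios.

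Per length, Ccnd3 made up 52.1% of the summed D cyclin level, Ccnd2 26.3% and Ccnd1 21.6%. In the sets of reads used, the share of Ccnd3 ran from 46.9% in library B to 54.4% in A. The family sum ran from 961 normalized counts per kb in A to 1386 in D. These values per library, and the ranges of the ratios below, rest on the limit that settled the reads of Ccnd2 and Ccnd3. The Ccnd3 set left out by that limit has a normalized count of 97.6 in B, against 1253 in the set used. Whether the make-up of the family was steady therefore cannot be decided from these shares. Ccnd3 over Ccnd1 was 2.41 per kb, with a range of 1.86 to 2.80 over libraries, and Ccnd2 over Ccnd1 was 1.22, with a range of 1.11 to 1.35. Ccnd3 over Ccnd2 was 1.98 per kb, with a range of 1.68 to 2.12, and without length scaling it turned to 0.735, since the annotated Ccnd2 transcript has 5701 bases and that of Ccnd3 has 2113.

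Of the D cyclin partners, Cdk4 was far above Cdk6. Cdk4 (gene ID 12567, chromosome 10, 127063535 to 127067288) had normalized counts of 898 in library A, 1429 in B, 1177 in C and 1005 in D. Cdk6 (gene ID 12571, chromosome 5, 3341004 to 3531008) had 84.1, 124, 107 and 149. Library A was again the lowest for both kinases, but the highest was B for Cdk4 and D for Cdk6. For Cdk6 these are 104 reads in A and 107 in D, and the interval of A, 68.7 to 102, lay below that of D, 122 to 180, and overlapped that of C. The highest-to-lowest ratio of Cdk4 was 1.59, which 7.81% of 1766 genes of like mean reached, and that of Cdk6 was 1.78, which 16.6% of 2005 genes reached. Per length, Cdk4 made up 94.6% of the summed level of the 2 kinases, between 92.4% in library D and 95.5% in B. Cdk6 over Cdk4 was 0.0565 per kb, with a range of 0.0476 to 0.0817.

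**Figure D3:**
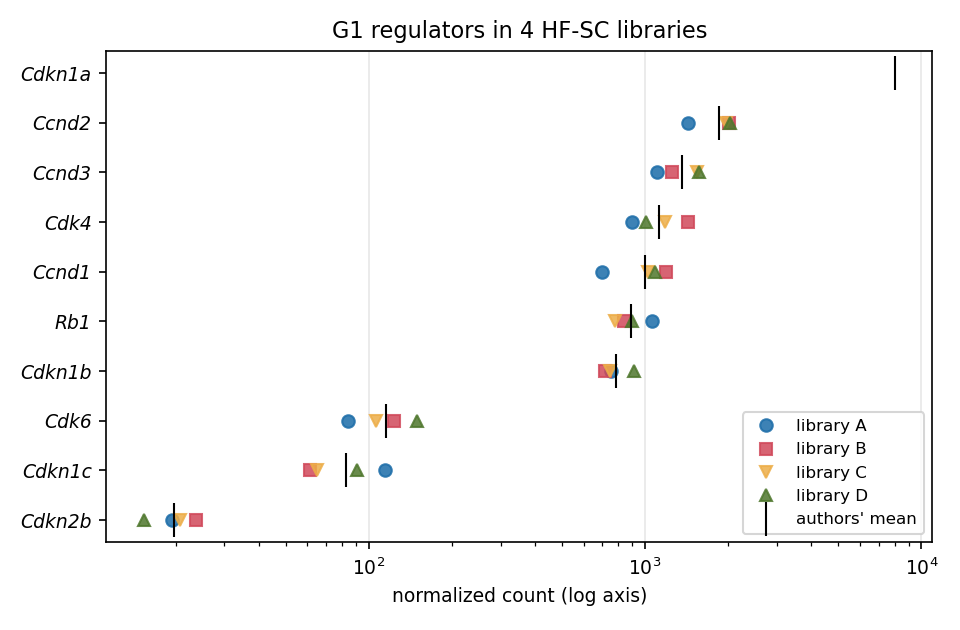
Normalized count (x axis, log scale) of each regulator in libraries A to D, with the authors' mean as a vertical bar. Cdkn1a has only its mean of 8004, and library A sits to the left of the other libraries for the 3 D cyclins, Cdk4 and Cdk6 and to the right for Rb1 and Cdkn1c.

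The CIP/KIP inhibitors differed widely in level. Cdkn1a (gene ID 12575, chromosome 17, 29090979 to 29100722), the p53 target that encodes p21, had a mean of 8004 normalized counts, higher than 98.7% of genes. Recovery of its reads per library was not tried, since its mean was over the limit of 2500 set for the search, so it has no spread and no error here. Cdkn1b (gene ID 12576, chromosome 6, 134920401 to 134925525), the p27 gene and the other member with a seed match, had 754 in library A, 717 in B, 748 in C and 909 in D. Libraries A to C lay together and D above them. Its ratio of 1.27 was the smallest of the 9 regulators, and 37.9% of genes of like mean had a ratio as large. Cdkn1c (gene ID 12577, chromosome 7, 143458339 to 143461059), an imprinted gene that encodes p57, had 115, 61.1, 65.2 and 90.7. Libraries A and D were above B and C for Cdkn1c, and the interval of A, 96.7 to 135, did not meet those of B, 47.8 to 76.9, or C, 50.1 to 83.4, whereas that of D, 70.0 to 116, met those of A, B and C. The ratio of 1.88 for Cdkn1c was reached by 23.5% of genes of like mean.

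Per length, Cdkn1a made up 95.1% of the summed CIP/KIP level, Cdkn1b 3.90% and Cdkn1c 0.975%. Cdkn1a over Cdkn1b was 24.4 per kb, and Cdkn1c over Cdkn1b was 0.250, with a range of 0.201 to 0.359 over libraries. These are levels of RNA. The amount of p27 protein is known to be set largely by its turnover, which the data do not measure.

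The INK4 inhibitor Cdkn2b (gene ID 12579, chromosome 4, 89306289 to 89311032), whose p15 protein is induced by TGF-β in epithelial cells, was the lowest regulator. It had 24 reads in library A, 28 in B, 20 in C and 11 in D, or normalized counts of 19.4, 23.8, 20.7 and 15.4. All 4 counting intervals overlapped, which is no test of a difference, and so few reads leave the order of the libraries uncertain. Of genes of like mean, 84.7% had a ratio at least as large. Per length Cdkn2b stood at 0.0828 of Cdkn1b, with a range of 0.0552 to 0.108.

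Rb1 (gene ID 19645, chromosome 14, 73192858 to 73325951), the target of the CDK4 and CDK6 kinases, had normalized counts of 1056 in library A, 837 in B, 781 in C and 898 in D. Library A was the highest here, and its interval of 1000 to 1115 did not meet that of any other library. The ratio of 1.35 was reached by 22.6% of 2031 genes of like mean.

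Some of these genes share ground with others in GENCODE vM1. Ccnd1, Ccnd2, Ccnd3, Cdk4 and Cdk6 each overlap 1 gene on the opposite strand, and Rb1 overlaps 4 genes, 2 of them on its own strand. The library kit keeps the strand, but whether the authors' counting used it is not given in the sources used here, so reads in these stretches are uncertain. The 4 inhibitors overlap no annotated gene.

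Across libraries, the 5 promoting genes, that is the D cyclins and their kinases, were all lowest in library A. Rb1 and Cdkn1c were highest there. Of the other inhibitors, Cdkn1b was highest in D, at 909, Cdkn2b was highest in B, at 23.8, and Cdkn1a has no reads per library. The grouping of the promoting genes was not planned beforehand. Among 9351 resolved genes with a mean over 50, library A was the lowest for 28.5% and the highest for 28.2%. For Ccnd2, Ccnd3 and Cdk4 the place of library A as the lowest rests on how reads were recovered. Ccnd2 and Ccnd3 each have a second set of reads that was set aside because it leaves the range of 0.5 to 2 times the mean, and in it the lowest library is D for Ccnd2, at 595, and B for Ccnd3, at 97.6. With the rounding error multiplied by 1.5, Ccnd3 also has a set within that range in which C is the lowest, at 855. Multiplied by 3, so do Ccnd2, with C lowest at 1274, and Cdk4, with D lowest at 592. For Cdk6 the reads had a single solution under every tolerance tried, and for Ccnd1 library A was the lowest in every set of reads within the range. With the rounding error multiplied by 3, however, a Ccnd1 set within the range has A at 674 and D at 677. Outside the range, wider tolerances also admit Ccnd1 sets with B lowest at 35.6 or C lowest at 345. The genes of S phase and mitosis were also lowest in library A in sum, though Ccnb2 and Rrm2 were lowest in D. The sum leaves out Pcna, whose reads were not searched for. The 13 resolved genes of the S phase and mitosis list summed to 2207 normalized counts in A, 4973 in B, 3546 in C and 2966 in D. Library B was the highest for 12 of the 13, and for 25.2% of the 9351 resolved genes with a mean over 50. Markers of other cells moved between the libraries too. The 4 resolved of 5 myeloid markers summed to 474, 1224, 910 and 480, and the 4 melanocyte markers to 830, 668, 1949 and 335. The 3 resolved suprabasal markers summed to 2102, 2461, 4551 and 1896, and the 3 resolved fibroblast markers to 1038, 767, 1078 and 593. The 3 resolved sebaceous markers summed to 61.5, 93.3, 109.7 and 48.9, and the 3 endothelial markers to 92.2, 91.6, 112.8 and 39.1. These sums leave out Krt10, Col1a1, Col3a1, Scd1 and Cd74, whose means were over the limit of 2500 for the search. No marker list had all its genes at 0 in a library. The part of these cells, and of cycling cells, in the spread of the G1 regulators was not tested.

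**Figure D4:**
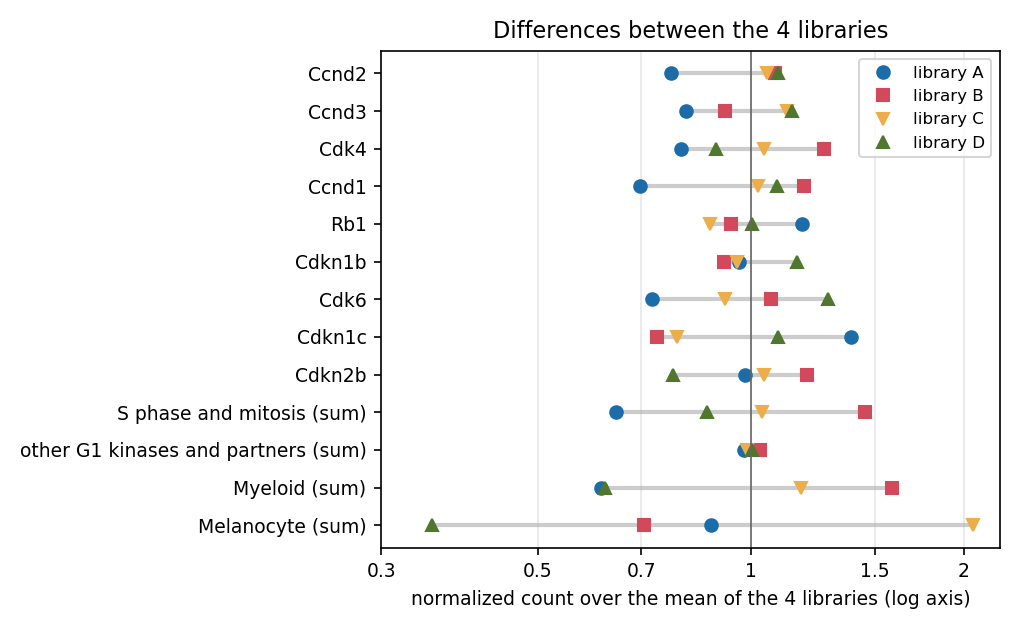
Normalized count in libraries A to D over the mean of the 4 (x axis, log scale) for 9 regulators and for the summed counts of 4 lists. Library A is the lowest for the D cyclins, Cdk4, Cdk6 and the sum of the 13 resolved S phase and mitosis genes. The melanocyte sum spreads the most, from 335 to 1949.

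The levels of the wider lists are means that are not scaled by length, so the genes named as highest and lowest can differ per kb. All 8 other G1 kinases and partners had a mean over 50, from Ccne1, a cyclin that activates CDK2, at 81.0 to Cdc37, a chaperone partner that loads kinases such as CDK4 onto HSP90, at 1326. Their sum ran from 2828 in library A to 2986 in B, and it was carried by Cdc37 and Cdk2, whose highest-to-lowest ratios were 1.11 and 1.15. The ratios of Ccne2, Ccnh and Ccne1 were 1.71, 1.60 and 1.58. Cdk2, Ccne2 and Ccnh were named after their values were seen. Of 3 other CDK inhibitors, Cdkn2d, which encodes the INK4 protein p19, was the highest at 213. Cdkn2a, which encodes p16 and p19ARF, was the lowest, with 2, 1, 0 and 2 reads in libraries A to D and a mean of 1.31, at the edge of detection.

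Of 18 pocket protein, E2F and MuvB genes, 15 had a mean over 50, from E2f7, a repressive E2F, at 16.5 to Dyrk1a, the kinase that helps to assemble the repressive DREAM complex, at 1916. Turnover genes of p27 and the cyclins ran from Skp2, which marks p27 for destruction, at 33.5 to Cul1, the scaffold of its ubiquitin ligase, at 2385, and 6 of 8 were over 50. Among 10 upstream factors, Myc was the highest at 7735 and Mycn the lowest at 37.0. The S phase and mitosis genes were all over 50, from the mitotic cyclin Ccnb2 at 51.1 to the replication clamp Pcna at 3116. On the scale of log2(mean + 1), the median was 9.89 for the 10 regulators, 7.44 for the other kinases and partners, 5.99 for the other inhibitors, 7.21 for the pocket protein, E2F and MuvB genes, 8.10 for the turnover genes, 10.10 for the upstream factors and 7.81 for the S phase and mitosis genes.

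**Figure D5:**
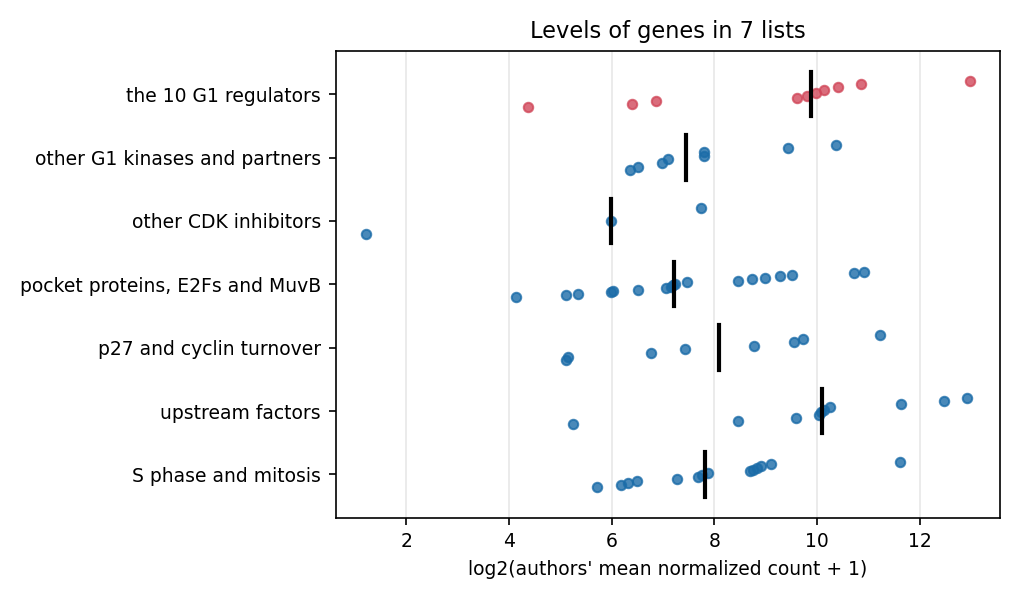
Levels as log2(mean normalized count + 1) on the x axis, 1 point per gene, for the 10 G1 regulators and 6 further lists, with the median as a black bar. The regulators have a median of 9.89, and the lowest point of the plot is Cdkn2a.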

How the data were processed

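RNA from sorted HF-SCs was made into directional libraries and sequenced in pairs of 150 nt. The authors aligned reads with HISAT2 2.1.0 to mm10 (the methods write NCBI37/mm10, which are different builds), used SAMtools 1.3.1, counted with HTSeq and compared groups with DESeq2. The deposited mean is a signal, the read count divided by DESeq2 size factors and averaged by the authors over 4 libraries. The table has 0 columns of single libraries. Its 5 other columns (log2 fold change, standard error, statistic, p-value and adjusted p) are the authors' comparison and were not used.

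Each mean, printed to 15 digits, is a sum of whole reads times the worth of 1 read in each library. A lattice search found the whole reads for means up to 2500, with a tolerance of 0.5 units of the last digit plus 1 spacing of a double-precision number. Exactly 1 solution was found for 12700 of 12700 genes with a mean up to 500. From 500 to 2500, where a solution also counted if it was the only one with every library within 0.5 to 2 times the mean, 3353 of 3430 genes were resolved (97.8%), and 914 genes above were not tried. Ccnd2 and Ccnd3 needed that limit. The tolerance and these limits were chosen after several had been tried on the data. Size factors recomputed from the recovered reads differed from the recovered ones by at most 0.904%. The search was tested on simulated data. No count test was run, because the recovered libraries carry no group.

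Transcript lengths and 3′UTRs were from GENCODE vM1, matched for 91.0% of genes with a mean above 0, and that annotation also gave the overlaps between genes. No coordinate of that build is printed. All 10 regulators are named, with the highest and lowest gene of each wider list. Cd34, Itga6 and Ly6a were named because the sort used them. The members and lists were chosen with earlier results of these data known. The pseudocount was 1. Python 3.11.15, numpy 2.4.6, scipy 1.17.1 and matplotlib 3.10.9 were used.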

Additional observations from a re-analysis of the deposited data

How the results depend on the processing

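The levels depend most on the length used and on the genes they are ranked among. The median percentile of the regulators was 84.8, and it was 75.0 among genes with a mean over 50, 89.4 among all genes of the table and 79.1 per kb. The median level per kb was 230, and it was 326 with the shortest transcript and 216 with the union of exons. Without length scaling, Ccnd2 over Ccnd1 was 1.85, Ccnd3 over Ccnd1 1.36, Cdk6 over Cdk4 0.103, Cdkn1a over Cdkn1b 10.2, Cdkn1c over Cdkn1b 0.106 and Cdkn2b over Cdkn1b 0.0253, and Ccnd3 over Ccnd2 reversed to 0.735. With the shortest transcript, Cdk6 over Cdk4 was 0.0297, Cdkn1a over Cdkn1b 32.8, Cdkn1c over Cdkn1b 0.134 and Cdkn2b over Cdkn1b 0.0435. With the union of exons, Cdk6 over Cdk4 was 0.0895 and Cdkn1a over Cdkn1b 21.0. Per kb, the median log2 level was 7.83 for the regulators, 5.67 for the other G1 kinases and partners, 4.72 for the other inhibitors, 6.01 for the pocket protein, E2F and MuvB genes, 6.99 for the turnover genes, 8.27 for the upstream factors and 5.87 for the S phase and mitosis genes. The scale itself moves these values, since each is divided by length.

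Leaving out each recovered library in turn, and Ccnd3 over Ccnd2 as a pair, were added after seeing the data. Leave-one-out ratios kept their side of 1, which was fixed beforehand because each ratio lay on the same side in all 4 libraries. They ran from 1.19 to 1.26 for Ccnd2 over Ccnd1 and from 2.33 to 2.64 for Ccnd3 over Ccnd1. The range was 1.93 to 2.09 for Ccnd3 over Ccnd2 and 0.0493 to 0.0607 for Cdk6 over Cdk4. Cdkn1c over Cdkn1b ran from 0.216 to 0.265 and Cdkn2b over Cdkn1b from 0.0752 to 0.0941. Ratios with Ccnd2 or Ccnd3 also rest on the reads chosen by the limit of 0.5 to 2 times the mean. The tolerance of the read recovery was also varied after seeing the data. With 0.5 or 2 spacings of a double in place of 1, 9 regulators were resolved and 13 and 0 genes had no solution. With the rounding error of the last digit multiplied by 1.5, 8 were resolved (not Ccnd3), multiplied by 2, 7 were (nor Ccnd2), and multiplied by 3, 5 were (nor Ccnd1 or Cdk4), because a wider tolerance admits more sets of reads. Rb1, Cdkn1b, Cdk6, Cdkn1c and Cdkn2b had 1 solution under every tolerance tried.

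No paired analysis was possible because the replicate numbers of the labels are not tied to the recovered libraries, and no induced-against-control test, replicate left out by group or other count test was run for the same reason. Depth limits Cdkn2b and Cdkn2a, with 83 and 5 reads in all.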

Other observations

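Rrm2, a subunit of ribonucleotide reductase, was the 1 resolved gene of the S phase and mitosis list that was not highest in library B, with normalized counts of 344 in library A, 674 in B, 856 in C and 315 in D.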
